A study of Mus musculus with 4 samples.

Results

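The genes described here make, pack and break down dopamine and the other monoamine transmitters. They are the 6 genes Th, Ddc, Gch1, Slc18a2, Maoa and Maob, taken by symbol from a table of 17778 genes, and all 6 were found in it. The tissue was the medial prefrontal cortex (mPFC), which lies at the front of the neocortex, from male C57BL/6J mice, and its mRNA was sequenced. The mice were juvenile when the experiment started, and the study gives the postnatal day of that start. Tissue was taken weeks later, after adaptation, the stress or control period and the behavior tests. The age at that point is not spelled out, but it follows from the starting age and the schedule in the study. The CUMS group (2 libraries) came from mice kept under chronic unpredictable mild stress, which was social isolation with a changing schedule of restraint, tilted or damp cages, noise and light, and only mice that turned depression-like in all behavior tests were used. The Control group (2 libraries) came from mice of the same strain without these stresses. Stressed mice that stayed resilient are not among these samples, so that stress alone and the depression-like state cannot be told apart. The table analysed here gives 1 mean per gene and group in RPKM (reads scaled to gene length and to the reads of the library), so that no value of a single mouse is shown, no spread between mice can be given, and nothing below has a test between mice. RNA was isolated from each mouse, but whether a library held the RNA of 1 mouse is not stated.

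As background, tyrosine hydroxylase (Th) turns tyrosine into L-DOPA, the rate-limiting step of dopamine and noradrenaline synthesis, and needs tetrahydrobiopterin, whose own synthesis begins with GTP cyclohydrolase (Gch1). DOPA decarboxylase (Ddc) then makes dopamine, and also serotonin from its precursor, the vesicular transporter VMAT2 (Slc18a2) loads monoamines into vesicles, and the monoamine oxidases A and B (Maoa, Maob) break them down in the mitochondrial outer membrane. The dopamine neurons that supply the mPFC have their cell bodies in the midbrain, so that most of their mRNA is not in cortical tissue. Th mRNA is also found in some cortical interneurons and is abundant in dopaminergic cells of the olfactory bulb and hypothalamus, and Maob is rich in astrocytes.

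The sequences around the transcript starts are shown for the 3 members with the lowest ratios and for Maoa, whose means were almost equal, so that motifs can be read beside the values. RefSeq windows on build GRCm38.p6 (250 bases before to 50 after a start) were matched for 5 of the 6 members, and Ddc had 2 windows. Maob was not matched. Each window is given 5′ to 3′ on the strand of its gene, and capitals mark every match to one of the searched motifs. These were the cyclic AMP response element (CRE, TGACGTCA), its core TGACG, the AP-1 site TGACTCA and the related TGATTCA, the Nr4a site NBRE (AAAGGTCA), the EGR sites GCGTGGGCG and GCGGGGGCG, the TATA motif TATAAA and the GC box GGGCGG, all on both strands. Each CRE also holds its core on both strands.
Th, chr7:142899946-142900245, minus strand: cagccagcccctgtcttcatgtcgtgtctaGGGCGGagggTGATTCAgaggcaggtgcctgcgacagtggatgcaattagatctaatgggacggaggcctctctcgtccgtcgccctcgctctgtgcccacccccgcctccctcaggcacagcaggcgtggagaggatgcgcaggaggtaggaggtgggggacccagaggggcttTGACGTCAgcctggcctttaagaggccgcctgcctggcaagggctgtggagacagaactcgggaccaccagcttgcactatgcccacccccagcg
Slc18a2, chr19:59260628-59260927, plus strand: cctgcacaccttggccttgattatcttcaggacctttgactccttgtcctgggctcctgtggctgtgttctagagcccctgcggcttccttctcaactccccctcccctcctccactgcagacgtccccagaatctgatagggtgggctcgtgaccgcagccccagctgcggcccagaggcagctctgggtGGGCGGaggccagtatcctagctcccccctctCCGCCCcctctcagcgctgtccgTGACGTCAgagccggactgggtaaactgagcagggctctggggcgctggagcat
Gch1, chr14:47189364-47189663, minus strand: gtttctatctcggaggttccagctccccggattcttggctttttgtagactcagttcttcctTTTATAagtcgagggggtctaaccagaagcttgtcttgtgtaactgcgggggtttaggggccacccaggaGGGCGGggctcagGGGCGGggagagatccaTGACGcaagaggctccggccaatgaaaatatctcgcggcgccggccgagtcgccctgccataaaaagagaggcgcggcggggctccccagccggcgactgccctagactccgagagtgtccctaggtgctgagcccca
Maoa, chrX:16619448-16619747, plus strand: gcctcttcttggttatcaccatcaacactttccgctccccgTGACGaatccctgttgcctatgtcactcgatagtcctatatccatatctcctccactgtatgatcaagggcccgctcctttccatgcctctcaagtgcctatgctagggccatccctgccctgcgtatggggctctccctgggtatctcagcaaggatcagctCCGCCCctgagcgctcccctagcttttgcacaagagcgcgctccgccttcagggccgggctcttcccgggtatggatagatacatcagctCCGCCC

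A full CRE was present in the windows of Th and Slc18a2, and in 1.79% of all 32851 windows of the same length. In Th it began 45 bases before the start, and in Slc18a2 it began 4 bases before the start and ran across it. The Gch1 and Maoa windows held the core alone, 88 and 209 bases before their starts, and the core was found in 20.8% of all windows. The related AP-1 form lay 210 bases before the start of Th and, on the reverse strand, 129 bases before the first start of Ddc, and was found in 2.81% of all windows. An NBRE lay 73 bases before the first start of Ddc (1.51% of all windows). The second Ddc window held none of the searched motifs. AP-1 (5.20% of all windows) and the EGR sites (0.612% and 2.91%) had no match in the windows of these members, while GC boxes (35.7%) were in Th, Gch1, Slc18a2 and Maoa and TATA motifs (13.6%) in Ddc and Gch1. A match of letters does not show that a factor binds there.

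**Figure D1:**
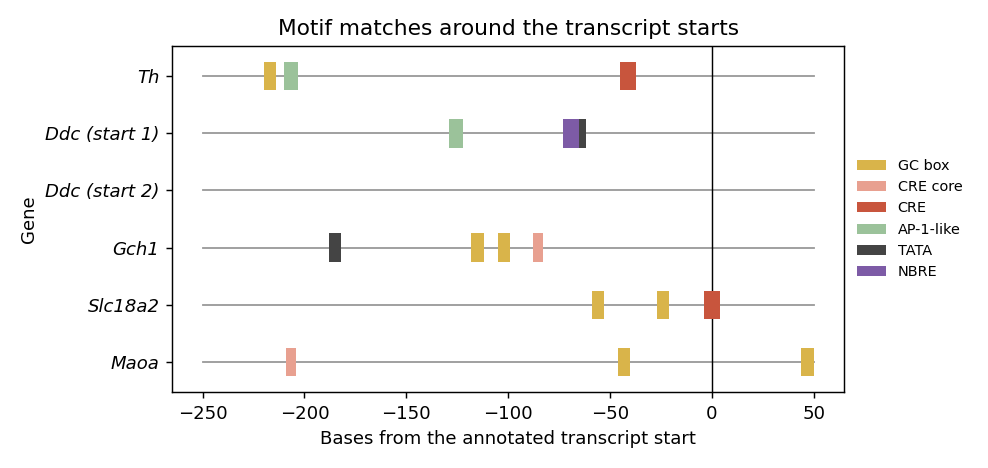
Motif matches in the windows of 5 members, with the distance in bases from the annotated transcript start on the x axis and 1 line per window. The full CRE is seen 45 bases before the start of Th and at the start of Slc18a2, whereas the second Ddc window is empty.

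The mean of Th was 7.78 RPKM in Control and 2.44 in CUMS. It was therefore 3.19-fold lower in depression-like mice, the largest difference among the members. In log2 terms the ratio was -1.67, with a 95% counting interval of -2.10 to -1.26. This interval rests on about 204 fragments in Control and 64 in CUMS, summed over both libraries of a group and estimated from the steps in the RPKM values, and it covers counting error only, not the spread between mice. Of 14257 genes with at least 0.5 RPKM in a group, 78 had a lower ratio than Th (0.547%), and 4.42% were lower by more than 1.5-fold. Among the 4340 genes whose mean over both groups lay within a factor of 2 of that of Th, 120 were lower by more than 1.5-fold (2.76%). Th (gene 21823) lies on chromosome 7, 142892779 to 142899995, on the minus strand, and the study itself picked it on these libraries. Since whole tissue was sequenced, fewer Th cells and less Th mRNA per cell cannot be told apart.

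Gch1 was the second member past 1.5-fold, which is the fold threshold of the study. Its mean was 0.74 RPKM in Control and 0.40 in CUMS, 1.85-fold lower. The log2 ratio was -0.89, but only about 31 and 17 fragments stood behind it, and the counting interval of -1.81 to 0.03 included equal expression. If the true number of fragments were 2 times the estimate, the interval would be -1.55 to -0.25. Genes of such low levels often pass the fold. Among the 1621 genes within a factor of 2 of its mean, 19.5% were lower and 15.4% were higher by more than 1.5-fold. Gch1 (gene 14528) lies on chromosome 14, 47153895 to 47189413.

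Ddc was 4.80 RPKM in Control and 3.655 in CUMS (141 and 108 fragments). It was 1.31-fold lower, with a log2 ratio of -0.39 and a counting interval of -0.76 to -0.015 that ended just under 0. Slc18a2 was 1.235 RPKM in Control and 0.85 in CUMS (70 and 48 fragments). This is 1.45-fold lower, with a log2 ratio of -0.54 and an interval of -1.11 to 0.004 that just reached equality (-0.92 to -0.15 with 2 times as many fragments). Neither gene passed the fold. Ddc (gene 13195, chromosome 11, 11814101 to 11898144) and Slc18a2 (gene 214084, chromosome 19, 59260878 to 59296012) both overlap antisense genes in GENCODE M21, and the strand setting of the counting was not stated, so that their values could hold reads of these partners. The overlap was 17199 bases for Ddc and 524 bases for Slc18a2. Gch1 overlaps 2 processed pseudogenes, and Th, Maoa and Maob overlap no other gene in that annotation.

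The breakdown enzymes were almost equal between groups. Maoa was 7.925 RPKM in Control and 7.79 in CUMS, a log2 ratio of -0.02 with a counting interval of -0.21 to 0.16 (493 and 485 fragments). Maob was 10.86 RPKM in Control and 11.495 in CUMS, a log2 ratio of 0.08 with an interval of -0.12 to 0.29 (394 and 418 fragments). On counting error alone, the intervals ran from a 1.16-fold lower mean of Maoa and a 1.09-fold lower mean of Maob up to higher means of both. They set no bound on a difference between mice. Both genes lie beside each other on chromosome X, Maoa (gene 17161) from 16619698 to 16687812 and Maob (gene 109731) from 16709281 to 16817366.

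**Figure D2:**
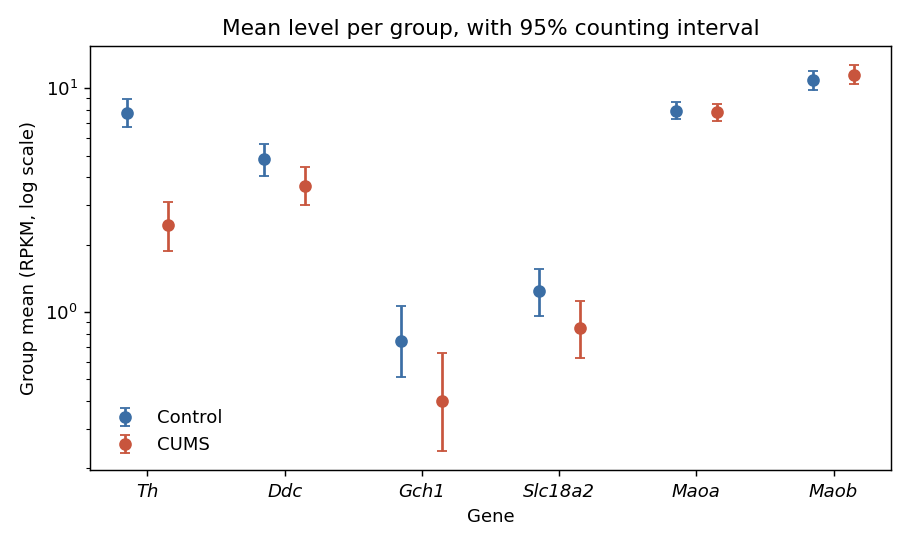
Group means of the 6 members in RPKM on a log axis, Control in blue and CUMS in red, with bars for the 95% counting interval. The intervals of Th do not overlap (6.74 to 8.91 in Control and 1.87 to 3.11 in CUMS), and those of the other 5 members do.

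In sum over the members, 5 of 6 means were lower and 1 was higher in CUMS, and the median log2 ratio was -0.47. The median over all 14257 genes was -0.015, and 53.2% of these were lower. Past 1.5-fold, 2 members were lower and 0 were higher, where 4.42% of all genes were lower and 2.78% were higher. The counting interval lay wholly under 0 in 2 members (Th and Ddc) and above 0 in none, against 16.9% of all genes under 0 and 12.6% above 0. For Ddc this depends on the scaling of the groups, since its interval ended so close to 0. Lower ratios than those of the other members were found in 287 genes for Gch1, 713 for Slc18a2, 1186 for Ddc, 6771 for Maoa and 10005 for Maob. The members were chosen with earlier results of these data known, and the low mean of Th was one of them.

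**Figure D3:**
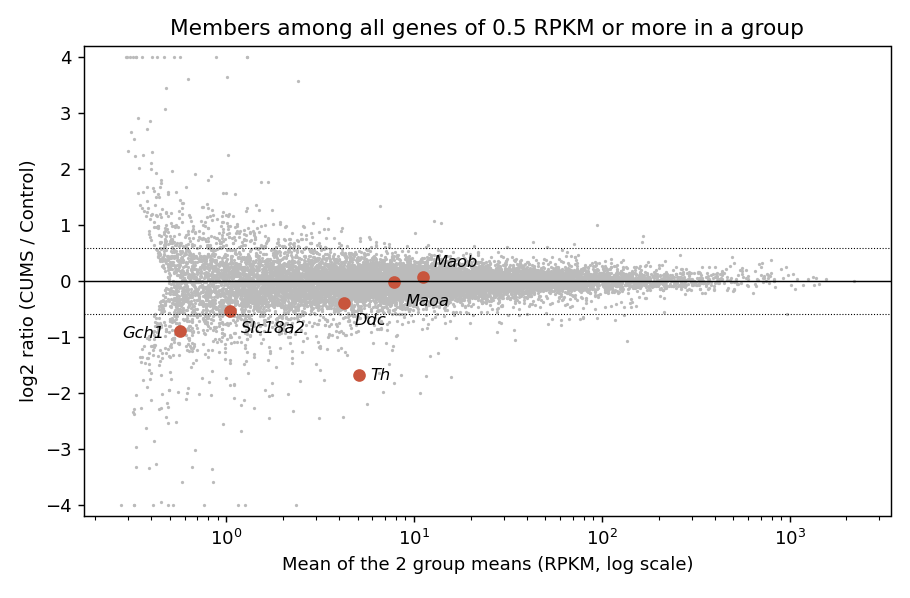
Log2 ratio of CUMS over Control against the mean of both groups (RPKM, log axis) for 14257 genes in grey, with the 6 members in red and dotted lines at 1.5-fold. Th lies below nearly all genes of its level, and Gch1 and Slc18a2 lie in the wide left part of the cloud (25 genes beyond 4 log2 units are drawn at the edge).

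The log2 ratio of Th lay further below 0 than those of Ddc and Slc18a2, which act after it. The log2 ratio of Th was 1.28 units below that of Ddc (difference -1.28, counting interval -1.82 to -0.74) and 1.13 units below that of Slc18a2 (difference -1.13, interval -1.80 to -0.47). Against Maoa and Maob the differences were -1.65 (-2.09 to -1.20) and -1.75 (-2.21 to -1.30). Against Gch1 the difference was -0.79 and its interval of -1.73 to 0.16 held 0, so that the change of Th and of Gch1 could not be told apart at the estimated number of fragments. More fragments would narrow this interval, and the comparison was not repeated with other numbers. The study states more mapped reads than the estimate.

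The order of the levels differed accordingly. In Control the means ran from Maob over Maoa, Th, Ddc and Slc18a2 to Gch1. Maoa and Th were indistinguishable there (ratio 1.02, counting interval 0.865 to 1.21), and Th was 1.62 times Ddc (1.30 to 2.02). In CUMS Th had moved below Ddc, at 0.668 times its level (0.479 to 0.912), and the order was Maob, Maoa, Ddc, Th, Slc18a2 and Gch1. In that group every neighbor in the order differed beyond counting error, and the closest were Maob and Maoa, at a ratio of 1.48 (1.29 to 1.69). Slc18a2 and Gch1 were the lowest members in both groups, and Slc18a2 was 1.67 times Gch1 in Control (1.06 to 2.59) and 2.13 times in CUMS (1.16 to 3.81).

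The wider pathway was read from a list of 22 further genes, all found in the table, of which 13 reached 0.5 RPKM. Of these 13, 2 were lower and 1 was higher by more than 1.5-fold, and their median log2 ratio was 0. Over all genes, 4.42% were lower and 2.78% were higher by that fold. Of the other genes that make or recycle tetrahydrobiopterin, 5 reached the minimum and 0 passed the fold. Pts, the step after Gch1, was 12.86 RPKM in Control and 16.24 in CUMS (log2 ratio 0.34, counting interval 0.07 to 0.61). Spr, the last step, had a log2 ratio of 0.13 (-0.03 to 0.29). Qdpr, which regenerates the cofactor, was far more abundant than any member and had a log2 ratio of -0.19 (110.45 and 96.605 RPKM, interval -0.28 to -0.11). Pcbd1 and Pcbd2 had log2 ratios of 0.06 and -0.04, both with intervals that held 0. Gchfr, the feedback regulator of Gch1, was under the minimum (4 and 1 fragments).

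Of 4 other enzymes of breakdown, 1 passed the fold. Aldh2, which oxidizes the aldehydes left by monoamine oxidase, had a log2 ratio of -0.04 (counting interval -0.14 to 0.07), and Hnmt, the histamine methyltransferase, one of 0.17 (-0.09 to 0.42). Aldh1a1, an aldehyde dehydrogenase present in midbrain dopamine neurons, was 8.535 RPKM in Control and 5.925 in CUMS, inside the fold threshold, with a log2 ratio of -0.53 (-0.81 to -0.25). Sult1a1, a phenol sulfotransferase, was 4.795 RPKM in Control and 2.475 in CUMS, 1.94-fold lower, with a log2 ratio of -0.95 (-1.44 to -0.44). Aldh1a1 shares 59616 bases with C730002L08Rik on the other strand (1.93 RPKM in Control and 2.955 in CUMS). Among the pathway and receptor genes, Qdpr, Pcbd2, Sult1a1, Aldh2, Slc22a3, Slc6a4, Slc18a1, Drd3 and Drd5 also overlap other genes in the GENCODE annotation.

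The synthesis enzymes for the other monoamines were near the limit of detection. Hdc, which makes histamine, was 0.705 RPKM in Control and 0.31 in CUMS, 2.27-fold lower (counting interval of the fold 1.08 to 5.12, 25 and 11 fragments). Pnmt, which makes adrenaline, was 0.08 RPKM in Control and 0.875 in CUMS. Its ratio was 10.9 with a counting interval of 1.77 to 512, because 1 fragment in Control stood against 12 in CUMS. Dbh, which makes noradrenaline from dopamine, had 2 and 12 fragments, a ratio of 5.83 (counting interval 1.33 to 55.1). Tph2, the serotonin-synthesis enzyme of neurons, had 2 and 13 fragments, a ratio of 6.5 (1.47 to 59.2). Both were under the minimum of 0.5 RPKM in both groups. Tph1 had 3 and 8 fragments. The few fragments of Pnmt, Dbh and Tph2 were more numerous in CUMS, opposite to Th, with no library values to show whether 1 library held them.

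Of the plasma membrane transporters, only the low-affinity Slc29a4 and Slc22a3 reached the minimum. Slc29a4 had a log2 ratio of 0.04 (5.91 and 6.065 RPKM, counting interval -0.22 to 0.29) and Slc22a3 was 1.305 RPKM in both groups (interval -0.51 to 0.50). The dopamine transporter Slc6a3, which marks midbrain dopamine neurons, had 10 and 9 fragments, the serotonin transporter Slc6a4 had 6 and 3, and the noradrenaline transporter Slc6a2 had 0 and 1. Slc22a2 had 6 and 9 fragments and the vesicular transporter Slc18a1 had 2 and 1. No difference was detectable in these genes at this depth.

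**Figure D4:**
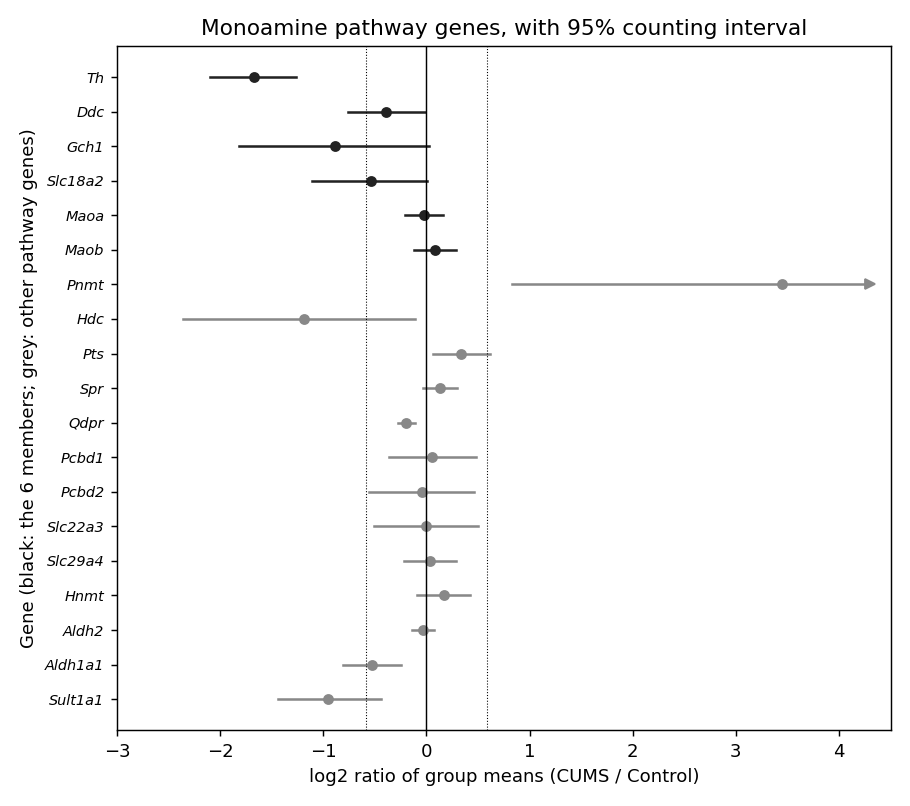
Log2 ratio of CUMS over Control for the 6 members (black) and the 13 other pathway genes of at least 0.5 RPKM in a group (grey), with bars for the 95% counting interval and dotted lines at 1.5-fold. Th has the lowest ratio, with a bar that overlaps those of Gch1, Hdc and Sult1a1. Pnmt has the widest bar (the arrow runs beyond the axis), and Aldh2 and Maoa lie close to 0.

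Among the dopamine receptors, Drd1a was 10.795 RPKM in Control and 8.985 in CUMS (log2 ratio -0.26, counting interval -0.44 to -0.09) and Drd2 was 13.985 and 11.02 RPKM (-0.34, -0.58 to -0.10), both inside the fold threshold. Both are also striatum markers, and all 13 markers of that list were lower (median -0.28). Drd5 had a log2 ratio of 0.36 (1.68 and 2.16 RPKM, interval -0.09 to 0.85). Drd4 passed the fold upward at 0.135 and 0.55 RPKM, a ratio of 4.07 on 3 and 11 fragments, with an interval of 0.967 to 20.4 that included equality. Drd3 was under the minimum (9 and 5 fragments). Over the 4 receptors that reached the minimum, 2 were lower and 2 were higher, and the median log2 ratio was 0.05. Over all genes 53.2% were lower, and past the fold 4.42% were lower and 2.78% higher.

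Markers of other cells and neighboring regions were read beside Th. The lists were chosen with earlier results of these data known, so that their counts are no independent evidence of a direction. For comparison, 53.2% of all genes were lower, and past 1.5-fold 4.42% were lower and 2.78% higher. The 10 neocortex excitatory neuron markers were all present in both groups (Slc17a7 was 635.39 RPKM in Control and 791.26 in CUMS). Their presence goes with neocortex in the tissue, but it cannot show which part of it was taken or that other regions were absent. All 10 were higher in CUMS, with a median log2 ratio of 0.32, and 1 of them (Emx1) passed the fold. Of 12 olfactory bulb markers, 12 were lower in CUMS and 9 passed the fold, with a median log2 ratio of -1.05, and their summed level was 82.94 RPKM in Control and 40.735 in CUMS. In this list Doc2g, a gene of bulb projection neurons, had a log2 ratio of -1.68, Eomes one of -1.61 and Tbx21 one of -1.09. Omp and S100a5, which mark olfactory sensory neurons, had 49 and 16 fragments in Control and 0 in CUMS, at least 16.3-fold and 5.40-fold lower when 3 fragments are taken as the floor. The remaining markers of this list past the fold were Sp8, Trh, Calb2 and Nmb, with log2 ratios from -1.27 to -0.92.

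Septum and hypothalamus markers were mostly lower too. Of 21 genes found, 16 reached the minimum, 15 were lower, 14 passed the fold downward and 1 (Pmch, 5 and 8 fragments) passed it upward. Over all genes 53.2% were lower, and past the fold 4.42% were lower and 2.78% higher. The median log2 ratio of the 16 markers was -1.56 (-1.49 with values under 3 fragments raised to 3). Over the 21 found, the summed level was 238.99 RPKM in Control and 116.585 in CUMS. Pomc did not pass the fold (-0.51, counting interval -1.39 to 0.34). The 5 genes under the minimum went both ways, with 0 and 5 fragments for Agrp and 2 and 4 for Hcrt, but 4 and 0 for Otp. Avp and Ghrh had 1 and 1 each. With no minimum, 81.0% of the list was lower. Those past the fold downward were Magel2 (-2.32), Lhx8 (-2.01), Dlk1 (-1.98), Baiap3 (-1.72), Ecel1 (-1.70), Nts (-1.64), Peg10 (-1.48), Zic1 (-1.34), Trh (-1.27), Zic2 (-0.98), Zic4 (-0.89) and Hap1 (-0.67), with Gal and Oxt, which had 1 fragment each in CUMS against 23 and 9 in Control. None of the 13 striatum markers passed the fold (median -0.28, summed level 713.01 and 594.51 RPKM). The study picked Doc2g, Calb2, Hap1, Zic1, Peg10, Nts, Ecel1, Baiap3, Dlk1 and Magel2 on the same libraries, so that they are no independent evidence of a direction, and Trh is in both the bulb and the hypothalamus list. The part of these regions in the value of Th was not tested.

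Of 17 genes that mark the identity of monoamine neurons, 9 were found in the table, 4 reached the minimum and 4 of these were lower, with a median log2 ratio of -0.87. Of these 4, 2 were lower by more than 1.5-fold. Over all genes 53.2% were lower, and past the fold 4.42% were lower and 2.78% higher. With no minimum, 77.8% of the list was lower. The summed level of the 9 genes was 13.585 RPKM in Control and 8.055 in CUMS. Slc10a4, a vesicle protein of monoamine and cholinergic neurons, was 4.765 RPKM in Control and 1.585 in CUMS, 3.01-fold lower (log2 ratio -1.59, counting interval -2.10 to -1.13). Ret, the receptor for GDNF family ligands, was 2.415 and 0.905 RPKM, 2.67-fold lower (-1.42, -1.77 to -1.08). Nr4a2, which is also common in cortical neurons, had a log2 ratio of -0.33 (-0.64 to -0.01) and Gata2 one of -0.05 (-0.49 to 0.39). The factors that define midbrain dopamine neurons were at or near 0, with 0 and 2 fragments for Pitx3, 1 and 0 for Lmx1a and 0 and 3 for Lmx1b, where 0 fragments allow up to 3. En2 had 10 and 7 fragments and Chrna6 had 5 and 1.

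The cells in which Maob, Slc18a2 and Hdc are also known were checked in the same way. Astrocyte markers, read beside Maob, were lower in 6 and higher in 6 of 12 genes, with a median log2 ratio of -0.01 and 1 gene past the fold (Fgfr3, -0.59), and their summed level was 1106.4 RPKM in Control and 1029.94 in CUMS. Endothelial and mural markers were lower in 7 and higher in 5 of 12 genes (median -0.10), and 1 of them passed the fold (Cldn5, -0.61), with summed levels of 143.275 and 126.74 RPKM. Meningeal markers were higher in 8 of 10 genes (median 0.30), and 4 were past the fold upward (Dcn, Aldh1a2, Slc47a1 and Slc22a6, 0.64 to 0.87), with summed levels of 533.21 and 614.425 RPKM. For all these lists the comparison is 53.2% of all genes lower, and past the fold 4.42% lower and 2.78% higher. Mast cells hold Slc18a2 and Hdc, and 4 of their 8 markers were found in the table. Hdc itself is one of these 4 and was lower, as given above. Cma1 had 0 and 1 fragments and Ms4a2 had 0 and 4, while Kit, which neurons also express, was 8.595 and 9.715 RPKM, so that Cma1 and Ms4a2 were at or near 0 in both groups.

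**Figure D5:**
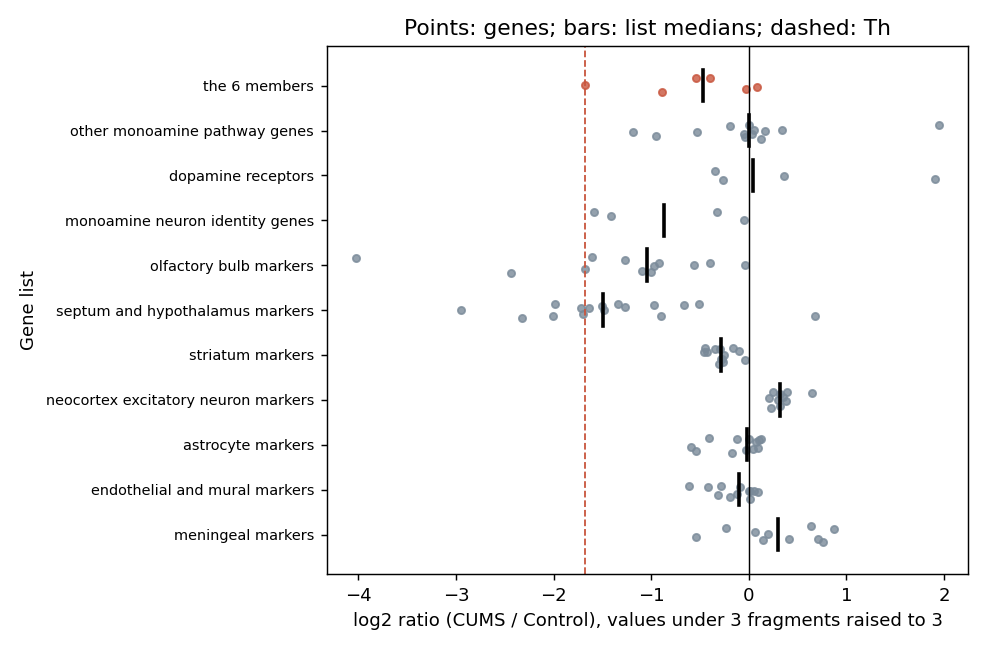
Log2 ratio of CUMS over Control for the 6 members and the genes of 10 lists (points, at least 0.5 RPKM in a group) with the median of each list (black bar) and the ratio of Th (dashed line). Values under 3 fragments were raised to 3, and Th lies among the olfactory bulb and the septum and hypothalamus markers and outside the astrocyte, striatum and neocortex lists.

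The genes most like Th in level and ratio were found by the distance between pairs of log2 group means, among 13675 other genes with at least 0.5 RPKM in both groups. With only 2 values per gene this describes position and nothing more. The nearest was Rasd1, a Ras-related gene (6.31 RPKM in Control and 2.53 in CUMS, distance 0.31). It was followed by A230065H16Rik (9.24 and 2.03 RPKM, distance 0.36), Trh, the gene of thyrotropin-releasing hormone (6.055 and 2.51 RPKM, distance 0.36), AW551984 (5.65 and 2.475 RPKM, distance 0.46) and Ppapdc1a (5.515 and 2.34 RPKM, distance 0.50). Of these, Trh stands in the marker lists above.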

How the data were processed

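mRNA of 4 libraries (2 Control and 2 CUMS) was measured, and groups were taken from the sample titles. According to the study and its processing notes, the authors trimmed reads with SolexaQA, aligned them to mm10 with TopHat 1.0.12 and Bowtie 0.11.3 and counted uniquely aligned reads per gene. Annotation and strand setting are not given in the sources used here. The deposited RPKM values are means that the authors took over the libraries of each group, with gene lengths. The table also holds the authors' log2 ratio, direction and NOISeq probability, which were not used.

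From the means, ratios were computed without a pseudocount. The lowest listed value, 0.01, was read as 0 fragments. Fragments were estimated from the RPKM steps of genes under 1000 bases (products under 350), where 87.9% of Control and 87.5% of CUMS values were whole multiples of a step to within 0.15. The steps of 66.9 and 66.8 (RPKM times bases) give about 7473842 fragments per Control and 7485030 per CUMS library, if libraries were equal in depth. The study states more mapped reads per library than these totals, and the reason for the gap was not tested. The fragments of a gene rest on the step alone. Intervals are exact (Clopper-Pearson for ratios, Poisson for levels) at 95% and cover counting error only. Since PCR reads are not independent molecules, they can be too narrow even for that. Intervals of differences between log2 ratios use a normal approximation. The floor was 3 fragments per group. A gene was called when it passed 1.5-fold with at least 0.5 RPKM in a group. No test between groups was possible. The step fit and intervals were tested on simulated data. Python 3.11.15, scipy 1.17.1 and pandas 2.3.3 were used.

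The members and the 12 gene lists were chosen with earlier results of these data known. Named were the members, every further pathway gene, receptor and mast cell marker in the lists, list genes past the fold and the 5 genes nearest to Th, and 3 pathway genes are not reported here. Positions and windows are taken from RefSeq GRCm38.p6 and overlaps from GENCODE M21, the same build as mm10, and 17731 of 17778 genes matched. Alternatives were other fold thresholds, level minima, scalings and pseudocounts.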

Additional observations from a re-analysis of the deposited data

How the results depend on the processing

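No paired analysis was possible because the values used here are means of groups, so that limma, a replicate block and the removal of single libraries were not run. All 24 values of the members' log2 ratios under other scalings (shifts of 0.015 and -0.008 on the log2 scale) and pseudocounts stayed inside their counting intervals. The scaling shifts were too small to leave any of these intervals, so that staying inside them was no test of the scaling. Intervals were not recomputed under the scalings. Those of Ddc and Slc18a2 ended at -0.015 and 0.004, no further from 0 than shifts of this size. Whether these 2 intervals lie wholly under 0 therefore depends on the scaling. Pseudocounts moved the ratios toward 0. With 1 RPKM, Th went from -1.67 to -1.35, Gch1 from -0.89 to -0.31 and Slc18a2 from -0.54 to -0.27. The number of fragments changes the intervals only. With fragments lowered by a factor of 2, the interval of Th was -2.30 to -1.09 and that of Ddc held 0 (-0.94 to 0.13). With fragments raised by a factor of 2, those of Th (-1.98 to -1.39), Ddc (-0.66 to -0.13), Gch1 (-1.55 to -0.25) and Slc18a2 (-0.92 to -0.15) lay under 0.

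The number of members lower by the fold, 2, was 1 at a fold of 2, at 5 RPKM or with a pseudocount of 0.5 RPKM (Th in each case), and 4 at a difference of 25% (Th, Gch1, Slc18a2 and Ddc). Over all genes, 630 lower and 396 higher became 222 and 128 at a fold of 2, 1609 and 1087 at 25%, 1889 and 1498 with no minimum, 120 and 30 at 5 RPKM, and 334 and 178 with the pseudocount. At 5 RPKM, dopamine receptors (100%, Drd1a and Drd2 alone) and septum and hypothalamus markers (100%) were lower. Of the mast cell markers (Kit alone) and the meningeal markers (Col1a2, Ptgds, Slc6a13 and Islr), 0% were lower at that level. The other 67 of 71 list shares stayed inside their Wilson intervals. Raising values under 3 fragments to 3 and raising the number of fragments were added after seeing the data.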

Other observations

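Genes next to the members on their chromosomes were read as further values, with no explanation. Grb10, an imprinted growth regulator 32355 bases from Ddc, was 15.295 RPKM in Control and 12.17 in CUMS, a log2 ratio of -0.33 (counting interval -0.46 to -0.20), close to that of Ddc. The nearest genes of the table on either side of Th, Igf2as and Ascl2, were under the minimum (5 and 8, and 5 and 1 fragments), so that no neighbor of Th could be followed. Pdzd8, whose span ends 72 bases from that of Slc18a2, had a log2 ratio of -0.03 (7.68 and 7.515 RPKM, interval -0.17 to 0.11). Ndp, which lies beside Maob, had a log2 ratio of 0.05 (5.035 and 5.225 RPKM, interval -0.28 to 0.39), so that the 3 adjacent genes Maoa, Maob and Ndp were all near equality.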
